A study of Homo sapiens with 6 samples.

Results

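The adenylate kinase genes AK1, AK3, AK4, AK5 and AK6 were followed at normal and at low oxygen in SUM1315, a long-established line of triple-negative breast cancer cells. The 5 genes were taken by name, and the values of all their annotated transcripts in the deposited table, 33 of 165956, were summed per gene. They are 5 of the 26425 genes with a value, and all 5 passed the filter on low values. The library set held 3 normoxia libraries (21% oxygen) and 3 hypoxia libraries (1% oxygen), each labelled with a time of 24 h. Every library came from wild-type SUM1315 cells in the same medium with serum, insulin and EGF, so the cell line, its genotype and the growth factors were shared by both groups. The series addresses how low oxygen acts on the making of ribosomes. The labels do not say whether the replicates were separate cultures, so each p-value reflects how far these 6 libraries scatter, and that scatter may be technical.

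Adenylate kinases pass a phosphate group between adenine nucleotides: they turn a pair of ADP molecules into ATP and AMP, and the reverse. The family is spread over the cell. AK1 and AK5 act in the cytosol, AK3 and AK4 in the mitochondrial matrix and AK6 in the nucleus. AMP made by these enzymes is a signal of energy shortage that is read by the AMP-activated protein kinase, and AK4 is known as a target of the oxygen-regulated transcription factor HIF1.

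Levels are RPKM, a unit that takes out transcript length and sequencing depth and that was inferred here from the values. In a sum over a gene's transcripts, short transcripts weigh more than their reads do. Comparisons between genes therefore depend on which transcripts are counted. Recovered depth was 50.4 to 50.9 M reads in normoxia and 44.0 to 50.7 M in hypoxia, and the 5 genes rested on 543 to 8416 estimated reads per gene and library. Marker genes were compared with the labels. The estrogen receptor ESR1 was near 0 (0.0716 ± 0.119 and 0.101 ± 0.0241 RPKM, SD, n = 3 per group), while ERBB2 was at 21.6 ± 0.327 and 22.1 ± 1.77. The mesenchymal marker VIM was at 4840 ± 86.5 and 6742 ± 610 RPKM, and the 4 keratins on the marker list stayed below 0.1 in mean RPKM in both groups. The low-oxygen marker BNIP3 was at 28.7 ± 1.66 in normoxia and 162 ± 8.54 in hypoxia, with no overlap. Of all 11889 genes tested, 1479 were raised and 2900 lowered, so 66.2% of the calls were decreases. That share was 52.6% with median-of-ratios scaling, 47.7% with upper-quartile scaling and 78.2% with libraries rescaled to equal sums.

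Low oxygen changed the order of the family. AK4 rose (4.86 times in the ratio of means), AK6 fell (0.700 times), and no change was called for AK1, AK3 and AK5. In normoxia AK5 had the highest level of the 5 genes, 21.0 ± 1.07 RPKM (SD, n = 3), followed by AK6 at 13.8 ± 1.85 and AK4 at 13.2 ± 0.709, whose libraries overlapped. AK3 followed at 11.2 ± 0.539 and AK1 was lowest at 8.35 ± 0.372, each with no overlap with its neighbours in the order. This order counts coding and noncoding transcripts alike, and the coding level of AK4 is given with its transcripts. Over protein-coding transcripts only, AK4 and not AK1 was the lowest of the 5 genes in every normoxia library. AK4 then made up 11.8% ± 0.701 of the 5-gene sum in normoxia and AK1 13.0% ± 0.452. In hypoxia AK4 stood first at 64.1 ± 3.45 RPKM and AK5 second at 20.3 ± 1.20, both apart from all others. AK3 (9.96 ± 1.21), AK6 (9.66 ± 0.432) and AK1 (8.31 ± 1.44) overlapped each other and did not differ beyond their spread. With limma and Benjamini-Hochberg adjustment at 0.05, 1 of the 5 genes was raised, where 12.4% of all tested genes were raised, and 1 was lowered, where 24.4% were lowered. The groups did not overlap for the same genes, AK4 (higher, background 16.4%) and AK6 (lower, background 35.5%). Counts of this size in 5 genes are not a result about the family as a whole, and the sections that follow take the genes by compartment.

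**Figure D1:**
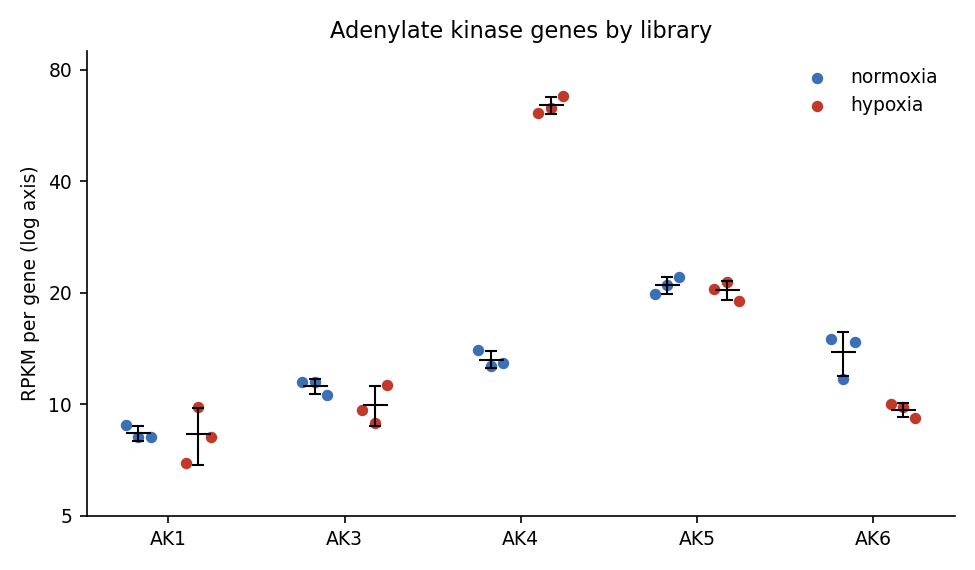
RPKM per gene (log axis) of AK1, AK3, AK4, AK5 and AK6 in each library, with blue points for normoxia and red for hypoxia. The bars are the mean and SD of 3 libraries. The AK4 points of hypoxia lie between 61.1 and 67.9, far above those of normoxia, while the AK1, AK3 and AK5 groups overlap.

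AK4, a kinase of the mitochondrial matrix close in sequence to AK3, lies on the forward strand at chr1:65147549-65232145 (GRCh38, GENCODE 29). Its level was 14.0, 12.7 and 12.9 RPKM in normoxia libraries 1 to 3, and 61.1, 63.2 and 67.9 RPKM in hypoxia libraries 1 to 3. Every hypoxia library lay far above every normoxia library. The ratio of the means was 4.86. On the log2(RPKM + 1) scale the difference was 2.20 (SE 0.07, 95% interval 2.05 to 2.34, limma adjusted p = 2.49e-09), which was rank 17 from the top among the 11889 tested genes. Relative to all tested genes, AK4 moved from the middle (above 56.5% of them in normoxia) to the upper end (above 89.6% in hypoxia). Under the 17 alternative settings the difference ran from 2.13 to 2.38, with limma adjusted p from 4.29e-12 to 0.000397.

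Several start sites feed AK4, and the letters before the most upstream one carry a core that HIF proteins are known to bind. That core is A or G followed by CGTG, searched here as ACGTG and as GCGTG on both strands in RefSeq promoter windows (GRCh38.p14, 250 bases before to 50 after each start, position 0 being the start). The window before the most upstream AK4 start is shown because it holds both forms. It lies at chr1:65147302-65147551 on the forward strand. The capitals mark GCGTG from -145 to -141, and the palindrome CACGTG from -93 to -88, which counts as ACGTG on each strand.
AK4 upstream window: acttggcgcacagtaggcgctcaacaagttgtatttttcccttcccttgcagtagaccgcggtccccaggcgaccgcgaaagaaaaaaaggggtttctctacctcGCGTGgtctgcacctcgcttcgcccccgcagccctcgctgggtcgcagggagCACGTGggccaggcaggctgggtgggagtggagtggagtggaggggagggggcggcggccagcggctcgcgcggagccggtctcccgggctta
Around the start of AK4-201, the transcript with most of the gene's reads, there was no ACGTG and there were 3 copies of GCGTG. Each is given in capitals with 12 bases on either side, at chr1:65148014-65148042, chr1:65148123-65148151 and chr1:65148180-65148208 on the forward strand.
AK4 site at -177: ttctcggacgcgGCGTGgggagcgagctg
AK4 site at -68: ttcagcagctttGCGTGggggcgaggagg
AK4 site at -11: cggggaggtgtaGCGTGgcgctcagtccg
Of the 4 AK4 promoters in the table, 2 held ACGTG and 3 held GCGTG. Over all 34943 promoter windows of the same length, 21.4% held ACGTG and 36.5% held GCGTG. A match is a description of the letters and not a site in use.

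The AK4 increase was seen in transcripts from several starts, and by coding and noncoding models alike. The table held 8 AK4 transcripts, and 5 of them passed the filter on low values. Of these 5, AK4-203 and AK4-204 were below 1 RPKM in every normoxia library and passed only through the hypoxia libraries, so that they were raised follows in part from the filter. The other 3, AK4-201, AK4-206 and AK4-208, were above 1 RPKM in all 6 libraries, and each was raised, where 3.5% of the 26790 tested transcripts were raised. In each of these 3 the groups did not overlap, where 11.6% of tested transcripts were higher without overlap. AK4-205 was at or near 0 in every library. AK4-201, which codes for the protein, was at 2.58, 2.43 and 2.78 RPKM in normoxia and 14.0, 14.2 and 12.7 RPKM in hypoxia. Its difference was 2.02 on the log2 scale (SE 0.09, limma adjusted p = 4.5e-05). It held 57.8% ± 4.17 of AK4's estimated reads in normoxia and 57.8% ± 0.951 in hypoxia, so its part of the gene was alike in both groups. AK4-208, a shorter coding model, was at 4.17 ± 0.670 and 18.4 ± 0.753 RPKM, and AK4-206, a noncoding model from the most upstream start, at 4.92 ± 0.413 and 18.5 ± 3.72. Their differences were 1.91 and 1.70 on the log2 scale, with limma adjusted p of 0.00015 and 0.00087. The noncoding models that passed only through hypoxia were at 0.378 ± 0.156 and 5.31 ± 0.791 RPKM (AK4-204) and at 0.820 ± 0.168 and 5.78 ± 1.63 RPKM (AK4-203), given here as a description. Summed over its coding models, AK4 was at 7.07 ± 0.577 RPKM in normoxia and 34.5 ± 2.56 in hypoxia, a ratio of means of 4.88. AK4-202 and AK4-207, full-length coding models that did not reach the filter, were below 0.5 RPKM in every normoxia library and between 0.502 and 1.87 RPKM in every hypoxia library. Values of overlapping transcripts are estimates that split shared reads, so the part of each model is less certain than the gene's total.

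**Figure D2:**
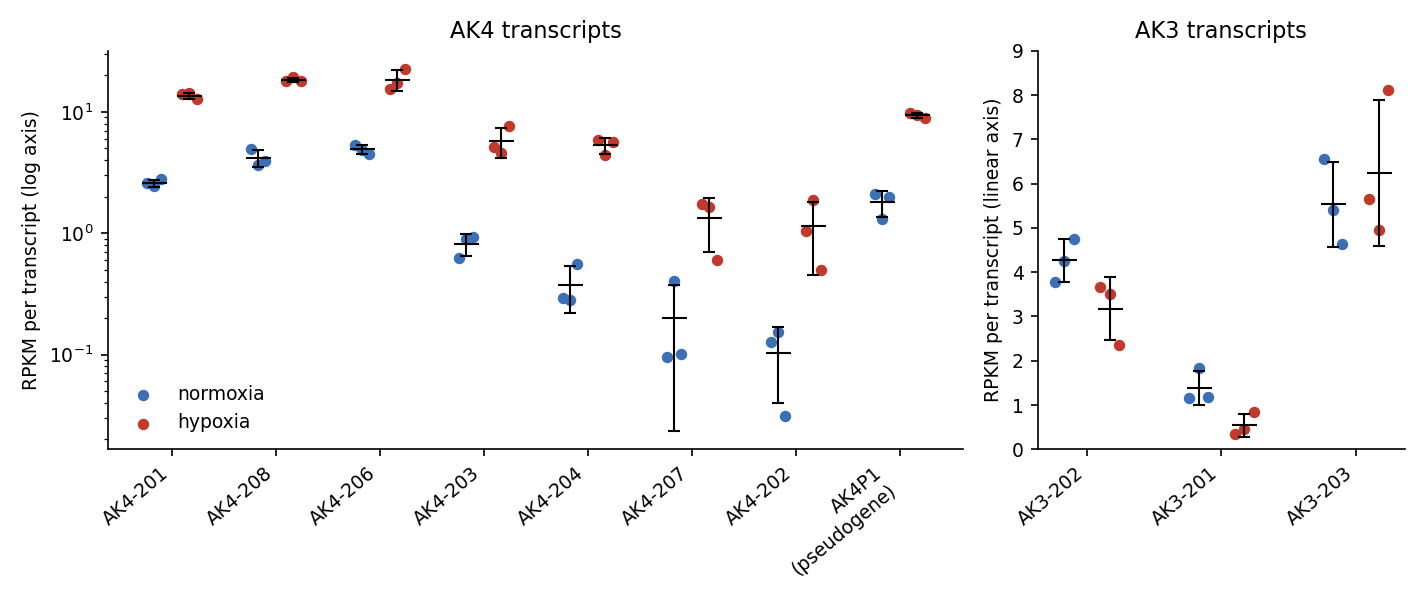
RPKM per transcript in each library for 7 AK4 transcripts and the AK4P1 pseudogene (left, log axis) and for 3 AK3 transcripts (right, linear axis), with the mean and SD of 3 libraries. All 7 AK4 transcripts shown and AK4P1 are higher in hypoxia with no overlap, where 11.6% of tested transcripts were higher without overlap. AK4-203 and AK4-204 passed the filter on low values only through hypoxia, and AK4-202 and AK4-207 did not pass it. AK4-205, at or near 0 in every library, is not shown. AK3-202 and AK3-201 lie lower in hypoxia with no overlap, where 22.5% of tested transcripts were lower without overlap, and AK3-203 overlaps. AK3-202 did not pass the transcript test (limma adjusted p = 0.202), and AK3-201 passed the filter only through normoxia.

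AK4 has a near-identical copy elsewhere in the genome. AK4P1, a processed pseudogene at chr17:31345519-31346190 on the forward strand, lies inside the gene NF1 and matches the whole AK4 coding sequence. Of 672 aligned bases, 670 were identical (99.7%), and 523 of 623 windows of 50 bases were the same in both. The mismatches are C237T and G465A, written as AK4's base, its position counted from 1 at the first coding base of AK4, and AK4P1's base. Both stretches are shown because, within the shared sequence, only reads across these letters can tell the pair apart, and the capital marks the differing base.
AK4 coding 207 to 267: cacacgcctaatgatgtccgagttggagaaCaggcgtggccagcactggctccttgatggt
AK4P1 for the same bases: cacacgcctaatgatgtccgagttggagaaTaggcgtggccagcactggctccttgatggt
AK4 coding 435 to 495: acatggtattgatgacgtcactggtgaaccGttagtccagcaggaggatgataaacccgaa
AK4P1 for the same bases: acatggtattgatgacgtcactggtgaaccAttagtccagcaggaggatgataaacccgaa
AK4P1 was listed at 2.13, 1.31 and 1.98 RPKM in normoxia and at 9.72, 9.49 and 8.95 RPKM in hypoxia. Its difference was 1.90 on the log2 scale (SE 0.11, limma adjusted p = 6.76e-07), with no overlap. The ratio of AK4P1 to AK4 was 0.136 ± 0.0288 in normoxia and 0.147 ± 0.0138 in hypoxia and overlapped, so the value listed for AK4P1 kept pace with that of AK4. Whether reads of AK4 were counted for AK4P1 was not tested. With AK4P1 added to AK4 the AK4 difference was 2.22. Of 14 annotated pseudogenes of the 5 genes, 4 were in the table, and the other 3 (AK4P3, AK3P3 and AK3P5) were below 1 RPKM in every library.

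AK3, the other kinase of the matrix, uses GTP or ITP to phosphorylate AMP. It lies on the reverse strand at chr9:4709559-4742043. Its coding sequence aligned to that of AK4 with 64.6% identity, the longest identical run was 22 bases, and no window of 50 bases was shared. AK3 was at 11.5, 11.5 and 10.6 RPKM in normoxia and 9.66, 8.92 and 11.3 RPKM in hypoxia, and hypoxia library 3 lay within the normoxia range. The difference of -0.16 on the log2 scale (SE 0.09, 95% interval -0.35 to 0.04) was not called (limma adjusted p = 0.175).

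That AK3 result turned on how transcripts were added up. Summed RPKM gives a short transcript more weight than its reads have, and the short coding model AK3-203 (705 bases) made up 49.3% of AK3's RPKM but 22.2% ± 4.87 of its estimated reads in normoxia. AK3-202, the main model by reads (65.8% ± 5.38 in normoxia), was at 3.78, 4.26 and 4.75 RPKM in normoxia and 3.66, 3.51 and 2.35 RPKM in hypoxia. AK3-201 was at 1.39 ± 0.384 and 0.544 ± 0.255 RPKM. AK3-201 was below 1 RPKM in every hypoxia library and passed the filter only through normoxia, so its lower level is a description. For AK3-202 every hypoxia library was below every normoxia library, where 22.5% of tested transcripts were lower without overlap, and it did not pass the transcript test (limma adjusted p = 0.202). AK3-203 was at 5.53 ± 0.963 and 6.24 ± 1.66 RPKM and highest in hypoxia library 3, at 8.11. With gene values weighted by reads, AK3 was at 11.2, 12.2 and 12.1 in normoxia and 9.71, 9.23 and 8.98 in hypoxia, without overlap, and the difference of -0.32 on the log2 scale was called (limma adjusted p = 0.0054). It was also called by limma-voom on estimated reads (-0.36, adjusted p = 0.0073) and without hypoxia replicate 3 (-0.24, limma adjusted p = 0.031). Across the alternatives the AK3 difference ran from -0.36 to -0.09 and stayed below 0.

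The balance of the matrix pair moved toward AK4. The ratio of AK4 to AK3 in RPKM was 1.22, 1.10 and 1.22 in normoxia libraries 1 to 3 and 6.33, 7.09 and 6.01 in hypoxia libraries 1 to 3. The means were 1.18 ± 0.0661 and 6.47 ± 0.554, and the groups did not overlap. With read-weighted values the ratio was 1.05 ± 0.0623 and 6.97 ± 0.401. The near-equal levels of normoxia counted AK4's noncoding transcripts, which are short and weigh more in summed RPKM than in reads. The main one, AK4-206 (834 bases), made up 37.3% of AK4's RPKM but 13.4% ± 0.967 of its estimated reads in normoxia. Over protein-coding transcripts only, the ratio was 0.633 ± 0.0495 in normoxia, with AK4 below AK3 in every library, and 3.52 ± 0.664 in hypoxia, with AK4 above AK3 in every library.

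For AK5 and AK1, the cytosolic kinases, no change was called. AK5, best known from brain, lies on the forward strand at chr1:77282051-77559969. It was at 19.9, 21.0 and 22.0 RPKM in normoxia and 20.5, 21.4 and 19.0 RPKM in hypoxia, and the groups overlapped. The difference was -0.04 on the log2 scale (SE 0.07, 95% interval -0.20 to 0.11, limma adjusted p = 0.640). A single coding model, AK5-203, held 95.6% ± 0.584 of its estimated reads in normoxia and 96.8% ± 0.506 in hypoxia, so its other 9 transcripts in the table added little. The antisense gene ENSG00000233099 inside the AK5 span shares no exon base with it and was at 0 in 5 libraries and at 0.104 RPKM in normoxia library 2.

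AK1, the kinase that is abundant in muscle and red blood cells, lies on the reverse strand at chr9:127866480-127877743. It was at 8.78, 8.13 and 8.13 RPKM in normoxia and 6.95, 9.82 and 8.15 RPKM in hypoxia. Hypoxia library 1 was the lowest and hypoxia library 2 the highest of all 6, so the groups overlapped and the hypoxia group had the wider spread. The difference was -0.02 on the log2 scale (SE 0.11, 95% interval -0.25 to 0.21, limma adjusted p = 0.908). For AK1 and AK5 the sign of the difference was positive with median-of-ratios and with upper-quartile scaling, and the intervals allow changes of either sign. AK1 shares 894 exon bases, 33.5% of its exons, with an unnamed coding gene on the same strand (ENSG00000257524, 16.2 ± 0.930 and 15.4 ± 1.12 RPKM), and the split of reads between them is uncertain.

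AK6, also called CINAP, is a nuclear protein that takes part in the last steps of making the small ribosomal subunit, and it was the member that fell. The gene lies on the reverse strand at chr5:69350984-69370013. It was at 15.0, 11.7 and 14.7 RPKM in normoxia and 10.0, 9.81 and 9.17 RPKM in hypoxia. Normoxia library 2 stood below the other normoxia libraries but above every hypoxia library. The means were 13.8 ± 1.85 and 9.66 ± 0.432, a ratio of 0.700, and the log2 difference was -0.47 (SE 0.09, 95% interval -0.67 to -0.26, limma adjusted p = 0.0040). Without the filter on low values the same difference was not called (limma adjusted p = 0.055), and under 16 alternatives it ran from -0.57 to -0.40. The short models AK6-204 and AK6-205 were uneven, at 2.22 and 1.43 RPKM in normoxia library 1 and 3.6e-05 and 0.0354 in normoxia library 2. With gene values weighted by reads, AK6 was at 13.5, 12.5 and 14.6 in normoxia and 10.1, 10.3 and 9.45 in hypoxia. That difference was -0.41 (limma adjusted p = 0.0025).

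The AK6 locus is shared with TAF9, a subunit of the general transcription factor TFIID, and its values depend on how reads were divided. TAF9 on the same strand covers 530 exon bases of AK6 (24.5%), and RAD17 on the opposite strand covers 210 (9.71%). RAD17 was at 5.07, 5.77 and 6.87 RPKM in normoxia and had a lower level than AK6 in every library of both groups. TAF9 had the higher level, 83.3 ± 3.52 RPKM in normoxia and 74.6 ± 4.56 in hypoxia, and its difference of -0.16 on the log2 scale was not called (limma adjusted p = 0.066). The ratio of AK6 to TAF9 was 0.166 ± 0.0247 and 0.130 ± 0.00484, lower in every hypoxia library than in any normoxia library. Summed as 1 locus, AK6 and TAF9 differed by -0.20 (limma adjusted p = 0.024). By transcript, AK6-201 was at 6.80 ± 0.760 and 4.59 ± 0.605 RPKM (log2 difference -0.48, limma adjusted p = 0.057) and AK6-202 at 5.30 ± 0.418 and 4.36 ± 0.667 (-0.24, limma adjusted p = 0.254). Neither passed the transcript test, so the AK6 call rests on the gene sum. Among the 12 tested transcripts of the 5 genes none was lowered, where 3.22% of all tested transcripts were lowered.

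The letters ACGTG also occur in the promoters of AK6. Both of its RefSeq windows held them, as did 1 of the 2 AK5 windows, while the 2 AK1 and the 2 AK3 windows held none. The other form, GCGTG, was in 1 of the 2 AK1 windows, in 1 of the 2 AK5 windows and in no AK3 or AK6 window. Around the start of AK5-203 there were 4 copies and around that of AK1-207 there were 2, in genes for which no change was called. The AK6 match is shown because it has the same palindrome as AK4 in a gene that fell. The 250 bases before its start site overlap exons of TAF9-201 and TAF9-202 as well as of AK6-201 and AK6-202. Those before the other AK6 start overlap exons of AK6-201, TAF9-202 and several RAD17 models. These windows are therefore not particular to AK6. The match lies at chr5:69369513-69369541 on the reverse strand, starts at -9, and its capitals mark CACGT, which reads ACGTG on the other strand.
AK6 site at -9: tagagcaaagggCACGTgagcgaggcgcc

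AK4's share of the summed RPKM of the 5 genes was higher in every hypoxia library. The summed RPKM of the 5 genes was 69.2, 64.9 and 68.3 in normoxia and 108, 113 and 115 in hypoxia, a ratio of means of 1.66. Without AK4 the sum was 54.3 ± 1.77 in normoxia and 48.2 ± 1.53 in hypoxia, lower in every hypoxia library. AK4 made up 20.2%, 19.5% and 18.9% of the sum in normoxia and 56.5%, 55.9% and 58.8% in hypoxia. The shares of the other members were lower in every hypoxia library: AK5 was at 31.1% ± 2.03 and 18.1% ± 1.41, AK6 at 20.4% ± 2.11 and 8.61% ± 0.651, AK3 at 16.6% ± 1.12 and 8.86% ± 0.949, and AK1 at 12.4% ± 0.407 and 7.39% ± 1.16. A share falls when another member rises, so the lower shares of AK1 and AK5 go with levels for which no change was called. By estimated reads AK4's share was 20.5% ± 0.768 and 59.7% ± 0.441. These sums include AK4's noncoding transcripts. Over protein-coding transcripts only, its share was 11.8% ± 0.701 in normoxia and 42.5% ± 1.59 in hypoxia, the highest of the 5 genes in hypoxia but less than the other 4 together. These shares are a description, with no test.

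**Figure D3:**
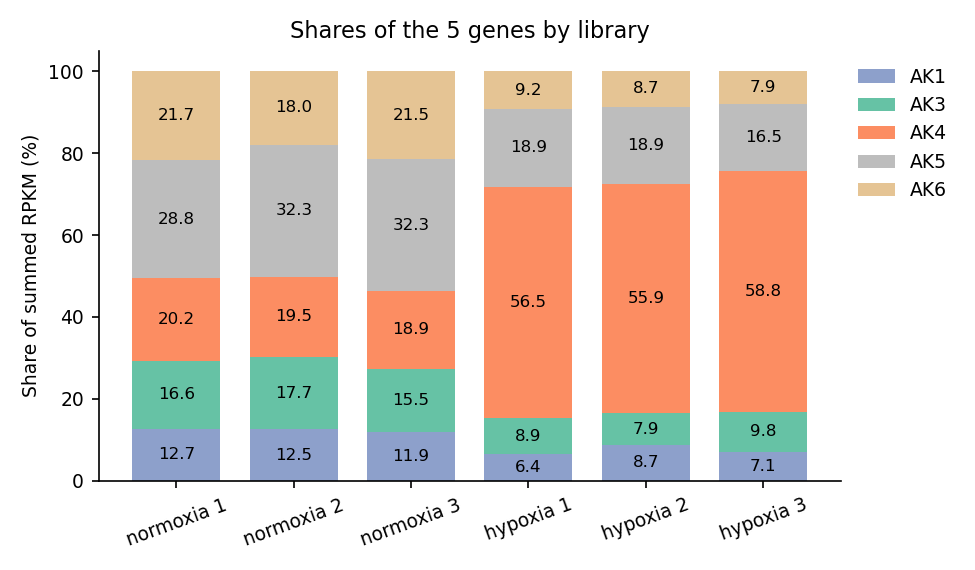
Share of each of the 5 genes in their summed RPKM, in percent, in each of the 6 libraries. AK4 takes 18.9% to 20.2% in the normoxia libraries and 55.9% to 58.8% in the hypoxia libraries, and the other 4 genes take less in hypoxia.

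The adenylate kinases AK7, AK8 and AK9 were at low levels. AK7, an adenylate kinase of cilia, rose at a low level, from 1.39 ± 0.234 to 2.29 ± 0.339 RPKM (log2 difference 0.46, SE 0.11, limma adjusted p = 0.0089), and was not called without the filter (limma adjusted p = 0.077). AK8 (0.110 ± 0.0451 and 0.278 ± 0.0474 RPKM) and AK9 (0.793 ± 0.0864 and 1.11 ± 0.196 RPKM) did not pass the filter and were not tested.

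Genes that work with the same nucleotides moved in both directions. Of 55 genes in 6 lists, 53 were in the table and 42 were tested, 7 were raised and 8 lowered, and the median log2 difference was -0.07, where the median over all tested genes was -0.08. These counts are close to the background of 12.4% raised and 24.4% lowered and are no result about the lists. The number lowered was 3 without normoxia replicate 1, 4 without normoxia replicate 2 and 3 without normoxia replicate 3.

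The largest change among the 42 tested partners was in CKB, the brain-type creatine kinase, which moves phosphate between ATP and creatine. It was at 39.7, 43.6 and 38.5 RPKM in normoxia and 137, 167 and 176 RPKM in hypoxia, without overlap, a log2 difference of 1.95 (SE 0.09, limma adjusted p = 7.09e-08). CKB was the only creatine kinase of 5 that passed the filter, and its increase was nearest in size to that of AK4 among the 42 tested partners. Of the kinases that act on other nucleotides, 9 of 11 were tested. GUK1, which phosphorylates GMP, rose (0.41 on the log2 scale, limma adjusted p = 0.00066), and CMPK1, which phosphorylates UMP and CMP, fell (-0.27, limma adjusted p = 0.0082). NME1, a nucleoside diphosphate kinase, fell as well (-0.25, limma adjusted p = 0.0085), but it lies beside the similar NME2 and the split of their reads is uncertain. The NME1 call was lost with upper-quartile scaling (-0.19, limma adjusted p = 0.059) and without normoxia replicate 3 (-0.21, limma adjusted p = 0.050).

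Of the AMP-activated protein kinase and its activators, 10 of 11 were tested, none was raised and 2 were lowered, with a median of -0.11. PRKAA1, a catalytic subunit, differed by -0.27 (limma adjusted p = 0.035) and CAB39, a partner of its activating kinase STK11, by -0.28 (limma adjusted p = 0.039). Each of these calls was lost under 9 alternatives and held under 7. Of the enzymes that use AMP and adenosine, 11 of 14 were tested, 1 was raised and 2 were lowered, with a median of -0.10. ADK, which makes AMP from adenosine, fell by 0.53 on the log2 scale (limma adjusted p = 0.0071), from 12.8 ± 1.58 to 8.57 ± 1.61 RPKM, and was not called without the filter (limma adjusted p = 0.098). ADSS2, which acts on the way from IMP to AMP, differed by -0.27 (limma adjusted p = 0.022), a call lost under 6 of 16 alternatives, among them leaving out any 1 normoxia library (limma adjusted p from 0.064 to 0.078). NT5C, a nucleotidase, differed by 0.21 (limma adjusted p = 0.034), a call lost under 8 of 16, among them no filter, equal sums and leaving out any 1 normoxia library (limma adjusted p from 0.068 to 0.116 under these).

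Of the carriers that move adenine nucleotides across the mitochondrial membranes, 10 of 11 were tested, 3 were raised and 2 lowered, with a median of -0.06. The ATP and phosphate carrier SLC25A23 rose from 28.6 ± 0.547 to 39.6 ± 3.61 RPKM (0.45 on the log2 scale, limma adjusted p = 0.00099). The ADP and ATP exchanger SLC25A6 rose from 405 ± 6.65 to 516 ± 44.5 RPKM (0.35, limma adjusted p = 0.0034). The carriers SLC25A25 and SLC25A24, of the same type as SLC25A23, fell (-0.30 and -0.19, limma adjusted p = 0.013 and 0.047), and the SLC25A24 call was lost under 9 alternatives. The SLC25A25 call was lost without normoxia replicate 1 (-0.26, limma adjusted p = 0.071).

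**Figure D4:**
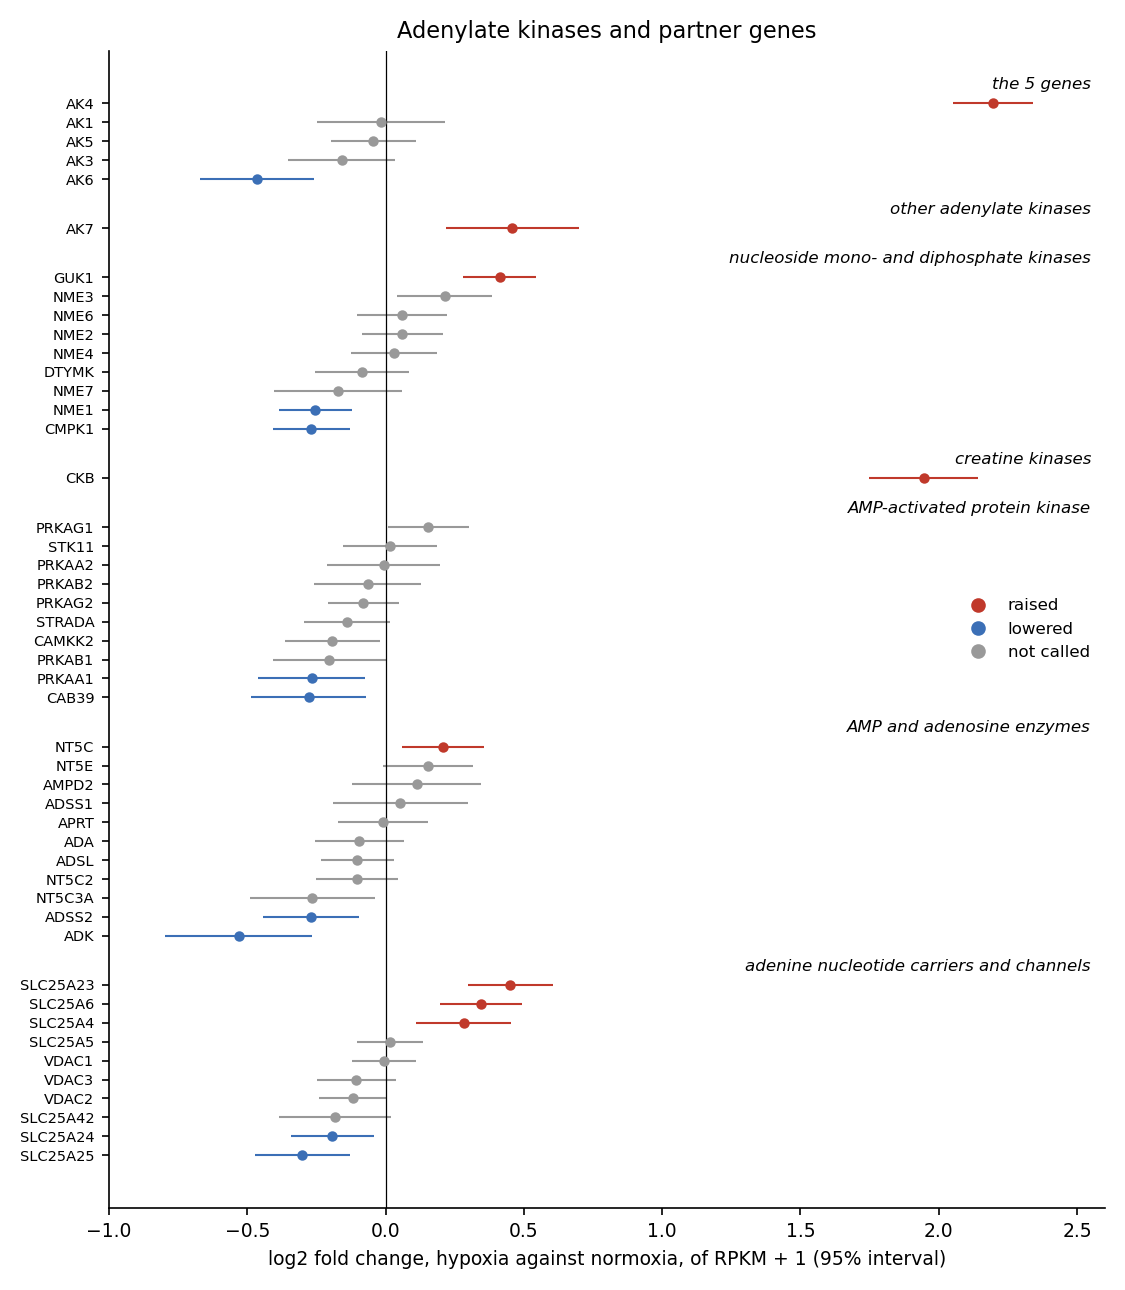
Log2 difference of RPKM + 1 between hypoxia and normoxia for the 5 genes and the 42 tested partner genes, with 95% intervals from limma. Red marks genes raised, blue genes lowered and grey genes not called at an adjusted p of 0.05. AK4 at 2.20 and CKB at 1.95 stand apart, and all other genes shown lie between -0.53 and 0.46.

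For the members that passed the test, the genes with the most similar pattern were found by Euclidean distance over the 6 libraries of log2(RPKM + 1), after taking off each gene's normoxia mean. For AK4, 8150 genes with a mean of at least 5 RPKM over all 6 libraries were compared. The nearest was BNIP3L, a receptor for the removal of mitochondria (distance 0.228), which was at 19.8 ± 0.393 and 89.3 ± 0.769 RPKM. It was followed by the glycolytic kinase PGK1 (0.304), the lipid droplet protein HILPDA (0.321), the nuclear envelope protein SPAG4 (0.345) and the pyruvate dehydrogenase kinase PDK1 (0.357). Their log2 differences were between 2.03 and 2.38, on either side of that of AK4. SPAG4 was at 2.07 ± 0.156 and 14.7 ± 0.937 RPKM and PDK1 at 2.83 ± 0.269 and 14.7 ± 0.618 RPKM. Both were below 5 RPKM in every normoxia library and reached that mean only through hypoxia, so their place follows in part from the filter. For AK6, compared with 8148 genes, the nearest were KATNBL1 (0.148), SOCS6 (0.172), the RNA polymerase III subunit POLR3K (0.186), CNKSR3 (0.187) and the splicing factor U2SURP (0.190), with log2 differences from -0.49 to -0.43. The distance used all 6 libraries, so a likeness in any of them, such as a lower value in normoxia library 2, is part of how these genes were chosen. Distances over 6 libraries of 1 contrast mainly sort genes by the size of that contrast.

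**Figure D5:**
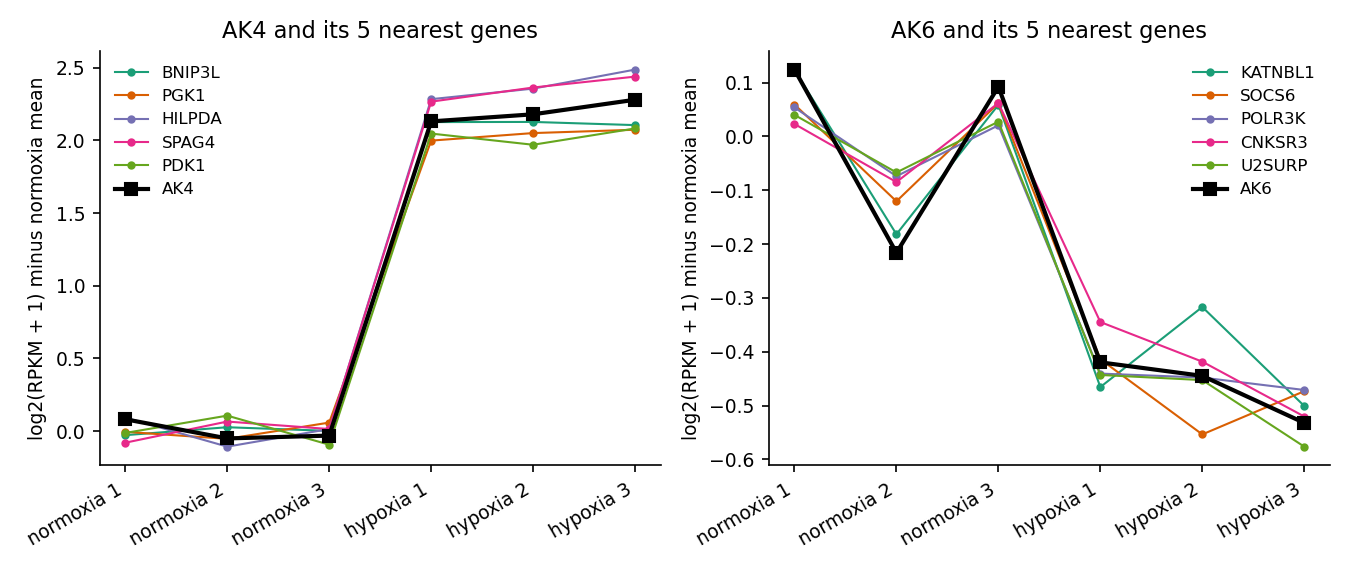
Log2(RPKM + 1) minus the gene's normoxia mean in each library for AK4 (left) and AK6 (right), drawn in black, and their 5 nearest genes in colour. The lines join libraries only to guide the eye. The AK4 set lies near 2 or above in every hypoxia library, and the AK6 set lies below 0 in every hypoxia library.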

How the data were processed

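RNA of 6 SUM1315 samples was sequenced, per the labels' protocols, after library preparation with the NEBNext Ultra RNA kit, which does not mark strand. The builds were GRCh38 and hg38 and the tools HISAT2, Partek, SAMtools and Trimmomatic, per the submitters' processing notes. Their versions, the annotation and the strand setting were not given in the sources used here. What the authors deposited is a transcript table of RPKM. The unit is not named in its header and was inferred from the values: 79.4% to 80.7% of low values lay within 0.1 of a whole multiple of 1 read, which gave the depth. For a 2 kb transcript 1 read equals 0.00982 to 0.0114 RPKM, so counting limits precision only at low levels.

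Transcripts were matched by identifier to GENCODE 29 (84.4% matched, and the others held 3.43% to 3.67% of RPKM and were not used here) and RPKM was summed per gene. Genes above 1 RPKM in 3 or more libraries were tested with limma 3.58.1 in R 4.3.3, on log2(RPKM + 1), letting the variance follow the mean. This scale understates changes of weakly expressed genes. P-values were two-sided and adjusted over all genes (Benjamini-Hochberg, 0.05), and likewise over all transcripts. Other steps used matplotlib 3.10.9, pandas 2.3.3, numpy 2.4.6 and Python 3.11.15. Tested on simulated data for the hypoxia and normoxia comparison (11889 genes), 94% and 96% of genes changed by log2 1 and -1 were recovered, 78% and 82% of those changed by 0.5 and -0.5, and 2.78% of calls were false. In that simulation the changed genes, 50 per size, left out weakly expressed genes, and noise was drawn separately for each library. No shift in scale between libraries was simulated, so its rates do not cover weak genes or the choice of scaling. Replicates differed beyond counting noise (mean chi-square per gene of 6.69 or more).

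The members and lists were chosen with earlier results of these data known. Named by rule were the 5 members, genes that overlap them, their pseudogenes, AK7, AK8 and AK9, the 2 largest increases and 2 largest decreases called in each list, and the 5 genes nearest in pattern to each member called. Alternatives were other scalings, filters, pseudocounts, transcript sets and tests, a replicate block, and leaving out each library. Adding AK4P1 to AK4, summing AK6 with TAF9, and read-weighted values were chosen after seeing the data. Symbols came from a table of current gene names and promoter windows from RefSeq. Some results are not reported here.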

Additional observations from a re-analysis of the deposited data

How the results depend on the processing

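AK4 was called higher under all 17 alternatives and AK1 and AK5 under none. AK6 was called lower under 15 of 16, the exception being no filter (-0.47, limma adjusted p = 0.055), and its sum with TAF9, which is mostly TAF9, was called too (-0.20). AK3 was called with limma-voom on estimated reads (-0.36), with read-weighted values (-0.32) and without hypoxia replicate 3 (-0.24), and its value ran from -0.24 to -0.090 as each library was left out. The number of partner genes lowered was 8, and was 4 with median-of-ratios scaling, 3 with upper-quartile scaling, 15 with equal sums, 3 with no filter and 3 to 8 as each library was left out. The cause of these shifts was not tested, except that no filter tests 26425 genes in place of 11889.

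The change in share of the 5-gene sum, in percentage points, was 37.5 for AK4, -4.99 for AK1, -7.74 for AK3, -13.0 for AK5 and -11.8 for AK6. With protein-coding transcripts only it was 30.6, -3.75, -6.44 and -9.31 for AK4, AK1, AK3 and AK5. By estimated reads it was 39.3, -6.62, -20.4 and -6.95 for AK4, AK3, AK5 and AK6. With AK4P1 added to AK4 it was 38.7 for AK4. The AK4 to AK3 ratio changed by 5.49 times, or 6.66 times by estimated reads.

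Deviations of same-numbered libraries correlated at 0.09, 0.03 and -0.23, and those of libraries with other numbers at -0.25 to 0.20. With 3 libraries per group these values cannot show whether the replicate numbers mark a pairing. With the replicate block AK4 was at 2.20 and AK6 at -0.47, both called, and the calls over all genes were 1466 raised and 2663 lowered against 1479 and 2900. Where leaving out a library left 2 in a group, limma pooled the spread over groups.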
